A study of Schizosaccharomyces pombe with 6 samples.

Results

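The 115 genes described here lie next to the ends of chromosomes I and II of fission yeast (Schizosaccharomyces pombe), among 7016 features measured. They were taken by the prefix of their systematic identifier, which names the genomic clone in which each was first sequenced, and no measured value was used. From the left end of chromosome I come SPAC212 with 12 genes and SPAC977 with 18, and from its right end SPAC869 with 11, SPAC186 with 9 and SPAC750 with 8. The left end of chromosome II gives SPBC1348 with 14, SPBPB21E7 with 10 and SPBPB10D8 with 7, and its right end SPBPB2B2 with 17 and SPBCPT2R1 with 9. All 115 were found in the RefSeq assembly ASM294v3, and all began within 100 kb of an assembled chromosome end. Of these, 102 are annotated as protein-coding and 13 as pseudogenes.

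RNA came from unsynchronised cultures growing exponentially in YES, a rich medium, at 30 °C. The 3 control libraries came from cultures given ethanol vehicle, and the 3 estradiol libraries from cultures given 1 µM beta-estradiol in ethanol for 3 h. The strain, its alleles and its estradiol-responsive parts are not described in the labels, so what control and treated cells share is not known from them. The deposited values are FPKM, by definition fragment counts divided by gene length and library total, so levels are comparable between genes per length. GFP, green fluorescent protein, was higher with estradiol, at 147 ± 15.3 FPKM in control and 714 ± 141 FPKM in estradiol libraries (mean ± SD, n = 3 each).

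Subtelomeres of this yeast are packed into heterochromatin. Clr4 methylates histone H3 on lysine 9, Swi6 and other chromodomain proteins bind that mark, and the SHREC complex removes histone acetylation. Shelterin proteins such as Taz1 bind the telomere repeats and help bring this machinery to the ends. Long stretches next to the ends of chromosomes I and II are near-copies of each other, whereas chromosome III ends in ribosomal DNA. Many genes found there encode transporters, enzymes for unusual nutrients and cell surface proteins, and many are quiet in rich medium.

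Copying between the ends is easiest to see in a family of uncharacterized proteins with a copy at each of the 4 ends. The first 90 coding bases of 6 of its genes were identical in ASM294v3. They are shown because reads from such a stretch cannot be assigned to 1 gene, and no letter is in capitals because no position differs. SPAC212.04c carries them at chrI:21587-21676 on the + strand, and SPAC212.01c at chrI:28738-28827 on the + strand. The other copies are SPAC750.06c, SPBC1348.01, SPBCPT2R1.01c and SPBCPT2R1.04c.
All 6 genes: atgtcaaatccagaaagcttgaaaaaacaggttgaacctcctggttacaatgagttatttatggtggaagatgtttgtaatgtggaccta

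The same genes part further in. Coding bases 303 to 392 held 29 differences between SPAC212.04c and SPAC212.01c, shown in capitals, and 0 between SPBCPT2R1.04c and SPAC212.01c. These are at chrI:29040-29129 (+), chrII:4514210-4514299 (-) and chrI:21889-21978 (+), in the order printed. This stretch is shown because it was the 90-base stretch of the aligned coding sequences in which SPAC212.04c, the member that rose with estradiol, differed most.
SPAC212.01c: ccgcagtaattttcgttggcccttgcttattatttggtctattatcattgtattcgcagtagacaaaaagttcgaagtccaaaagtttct
SPBCPT2R1.04c: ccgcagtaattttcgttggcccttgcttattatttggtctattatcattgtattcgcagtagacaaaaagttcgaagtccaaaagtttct
SPAC212.04c: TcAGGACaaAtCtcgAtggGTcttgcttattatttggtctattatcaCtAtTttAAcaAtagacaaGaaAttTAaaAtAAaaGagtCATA

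Over the whole coding sequence, SPBCPT2R1.04c was 99.9% identical to SPAC212.01c, SPAC750.06c 99.8%, and SPBC1348.01 and SPBCPT2R1.01c 96.0%, whereas SPAC212.04c was 81.0% identical. As a measure of such copying, each gene was read in 50-base windows, and the share of windows found again elsewhere in the assembly was counted. At least 50% of the windows were repeated in 63 of the 115 genes, and all of them in 27. In 50 genes no window was repeated, and in the other two, SPAC977.14c and SPAC750.01, the share was 29.1% and 32.8%. How shared reads were divided is not given in the sources used here. The value of any 1 copy is therefore uncertain, and a listed 0 in a copied gene is not a measurement of silence.

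Most of these genes were listed at very low levels in control cells. The median control level was 0.412 FPKM, against 27.7 FPKM over all 7016 features and 39.2 FPKM over the 5105 protein-coding ones. A mean control level below 1 FPKM was found for 69 of the 115 genes, against 909 of all 7016 features. A further 29 genes lay from 1 to below 10 FPKM and 17 at 10 FPKM or more. For scale, 1 fragment in a gene of 1 kb was worth about 0.234 FPKM in control library 0, judged from the spacing of values in 236 low features. That is a median, with quartiles of 0.133 and 0.2625 FPKM. In shallow libraries the same fragment counts for more, and depth relative to control library 0 was between 0.688 (estradiol 0) and 1.3 (control 1). In a gene of about 1 kb, a level under 1 FPKM therefore rests on a few fragments, and in a longer gene on more.

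A listed 0 in all 6 libraries was found for 30 of the 115 genes and for 394 of all 7016 features. Among protein-coding genes the counts were 26 of 102 here and 49 of 5105 overall. Repeated sequence goes with these zeros: 28 of the 30 had at least 50% of their windows repeated, and 22 were among the 27 genes whose every window was repeated. The 2 without any repeated window were SPBPB21E7.05 and SPBPB21E7.10, both uncharacterized. Most of SPBPB21E7.10 overlaps SPBPB21E7.11 on the other strand, at 0.506 FPKM in control. The kit did not mark strand, so the listed 0 of SPBPB21E7.10 is not a measurement of silence either. Low levels were also found outside the copied sequence, since 20 of the 50 genes with no repeated window had a mean control level below 1 FPKM.

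The levels rose with distance from the chromosome end. Of the 68 genes within 50 kb of an assembled end, 54 lay below 1 FPKM in control and 0 reached 10 FPKM, with a median of 0.0067 FPKM. Of the 47 genes farther in, 15 lay below 1 FPKM and 17 reached 10 FPKM, with a median of 5.03 FPKM. The rank correlation of control level with distance was 0.558 over the 115 genes, and 0.436 over the 52 with under 50% of windows repeated. These are descriptions across genes that share libraries and chromosome ends. Repeated genes sat nearest the ends, with 55 of the 63 within 50 kb, and of the 13 other genes there 9 lay below 1 FPKM. The dividing line of 50 kb was chosen after the values were seen.

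**Figure D1:**
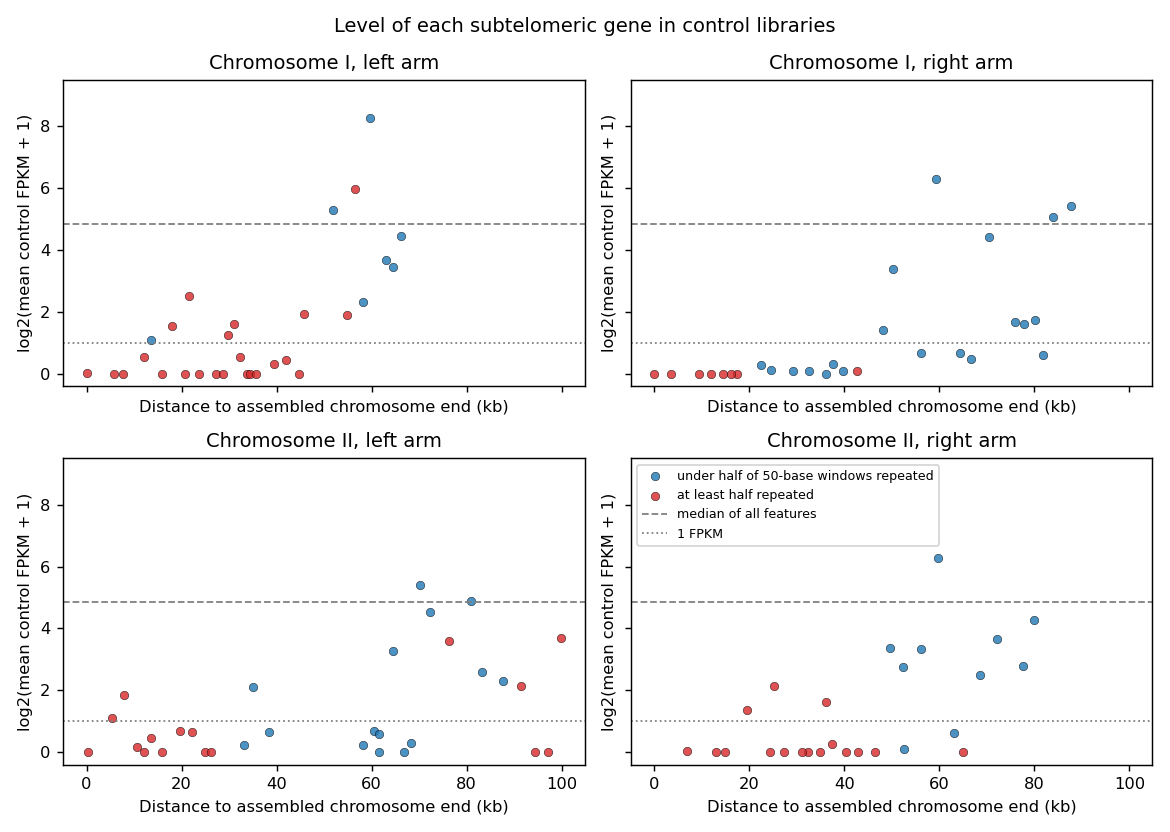
Mean control level of each gene on a log2(FPKM + 1) axis against its distance to the assembled chromosome end in kb, in 1 panel per chromosome arm. Red points have at least 50% of their 50-base windows repeated elsewhere, the dashed line is the median of all features (27.7 FPKM) and the dotted line is 1 FPKM; the points at 10 FPKM or more lie beyond 50 kb.

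The clones differed in the levels listed for their genes and in how many genes had at least 50% of windows repeated. Such genes made up 7 of 8 in SPAC750, 11 of 12 in SPAC212, 11 of 14 in SPBC1348 and 9 of 9 in SPBCPT2R1. They were 12 of 18 in SPAC977, 7 of 17 in SPBPB2B2 and 4 of 7 in SPBPB10D8. In SPBPB21E7 they were 1 of 10, in SPAC186 1 of 9 and in SPAC869 0 of 11. Differences in listed level between clones were not separated from differences in copying. All 8 genes of SPAC750, which reaches the assembled right end of chromosome I, lay below 1 FPKM, and 5 were listed at 0 in every library. The highest of them was SPAC750.01, an aldo/keto reductase gene, at 0.233 ± 0.255 FPKM in control and 0.538 ± 0.166 FPKM in estradiol libraries (n = 3 each). In SPAC212, at the opposite end of the chromosome, 9 of 12 genes lay below 1 FPKM and 6 were listed at 0 throughout. In SPBC1348 and SPBCPT2R1, which reach toward the ends of chromosome II, 11 of 14 and 7 of 9 genes lay below 1 FPKM. SPAC186 held 7 genes below 1 FPKM of 9, although 0 of its genes were listed at 0 throughout. Those 7 include pdc102, which encodes a pyruvate decarboxylase, at 0.0905 FPKM in control, and gdt1, named for a GDT1-like protein, at 0.249 FPKM.

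Genes at 10 FPKM or more were found in SPAC977 with 5, SPAC869 with 4, SPBPB21E7 and SPBPB2B2 with 3 each and SPBPB10D8 with 2. These clones reach farthest from the ends. Genes listed low lay among them, such as eno102 in SPBPB21E7, an enolase gene, at 0.163 FPKM. Another was tgd1 in SPBPB2B2, encoding a nucleotide-sugar dehydratase, at 0.0809 FPKM. Both overlap another feature, eno102 a non-coding RNA and tgd1 the gene gal10 on the other strand, at 5.68 FPKM in control. The kit did not mark strand, so the levels of eno102 and tgd1 are uncertain.

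**Figure D2:**
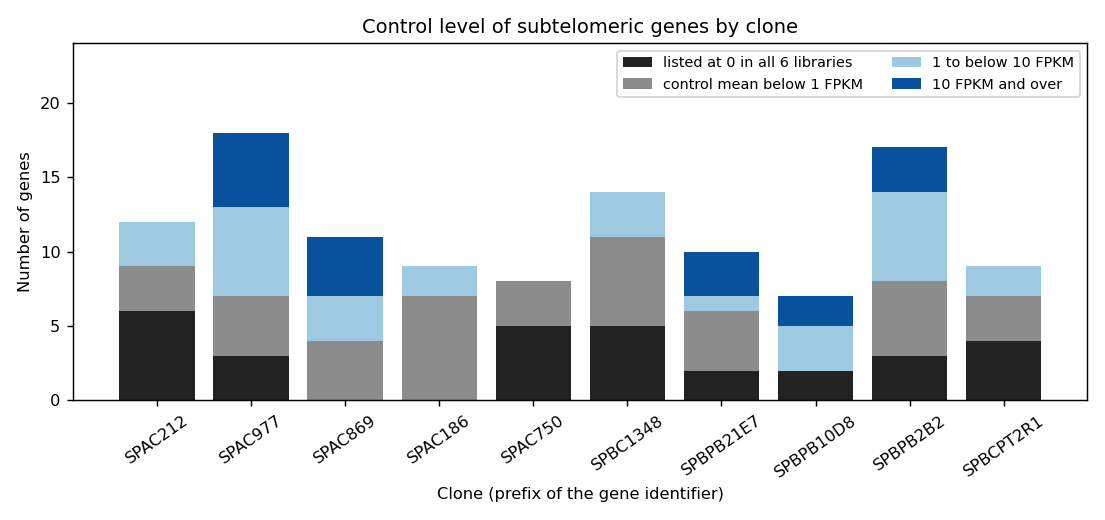
Number of genes in each clone by level: listed at 0 in all 6 libraries (black), control mean below 1 FPKM otherwise (grey), 1 to below 10 FPKM (light blue) and 10 FPKM or more (dark blue). The 8 genes of SPAC750 all lie below 1 FPKM, whereas SPAC977 holds 5 genes at 10 FPKM or more.

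The helicase genes tlh1 and tlh2, which mark silent subtelomeres and are known to be expressed when telomeres fail, were barely detected. tlh1 (SPAC212.11), at the assembled left end of chromosome I, stood at 0.0404, 0 and 0 FPKM in control and 0, 0.0175 and 0.0562 FPKM in estradiol libraries 0, 1 and 2. tlh2 (SPBCPT2R1.08c), at chrII:4526885-4532899, stood at 0.0380, 0 and 0.0426 FPKM in control and 0.110, 0.0165 and 0 FPKM in estradiol libraries. The groups overlapped for both genes, and the proteins are 98.3% identical, so their reads are hard to tell apart. The third helicase-like gene, SPAC212.06c, stood at 1.9 ± 1.2 FPKM in control and 2.07 ± 1.4 FPKM in estradiol libraries (n = 3 each, limma adjusted p = 0.943).

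Families of near-identical proteins show how uneven the listed values are among copies. Proteins more than 95% identical formed 17 families with 44 of the genes, of which 20 were listed at 0 in all 6 libraries. In 4 of the families a gene listed at 0 in all 6 libraries stood beside a copy with a control mean of 1 FPKM or more. The 4 transporter genes SPBPB10D8.04c to SPBPB10D8.07c encode identical proteins: SPBPB10D8.05c and SPBPB10D8.06c were listed at 0 throughout, SPBPB10D8.04c averaged 3.42 FPKM and SPBPB10D8.07c 12 FPKM in control libraries. The phospholipase gene plb4 (SPAC977.09c) averaged 2.87 FPKM in control, while SPBC1348.10c, encoding the same protein, was listed at 0. The 3 Vel1p domain genes SPAC977.05c, SPBC1348.06c and SPBPB2B2.15, and the dehydrogenase pair ayr2 (SPAC977.08) and SPBC1348.09, were listed at 0 throughout.

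The methyltransferase genes SPAC750.03c and SPBC1348.04 were listed at 0, and their copy SPAC977.03 stood at 0 in the 3 control libraries and at 1.23, 1.1 and 0 FPKM in estradiol libraries 0, 1 and 2. Among the transporter genes SPAC750.02c, SPBC1348.05 and SPBPB2B2.16c, none averaged above 0.377 FPKM in either group. The ftm genes, named for a predicted transmembrane helix, ranged from ftm3 and ftm4 in SPAC750, listed at 0, to ftm5 (SPBC1348.02) at 2.63 FPKM in control. ftm5, ftm4 and SPBPB2B2.19c belong to the same family, in which ftm5 alone was listed above 0. The cell surface glycoprotein pair pfl6 (SPAC977.07c) and SPBC1348.08c averaged 0.381 and 0.567 FPKM in control. For the asparaginase pair SPBPB21E7.09 and SPAC186.03, the control levels were 11.2 and 0.0691 FPKM.

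The remaining genes listed at 0 in all libraries belong to mostly uncharacterized sets. From SPAC212 these were the pseudogenes SPAC212.05c, SPAC212.09c and SPAC212.10, the cell surface gene SPAC212.12, SPAC212.01c and SPAC212.02. Also at 0 were SPAC977.04, SPAC750.07c, SPBC1348.15, and the malic enzyme gene SPAC750.08c at the assembled right end of chromosome I. In SPBCPT2R1 they were SPBCPT2R1.01c, SPBCPT2R1.02, SPBCPT2R1.03 and the pseudogene SPBCPT2R1.05c.

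The most abundant transcript was SPAC977.14c, annotated as an aldo-keto reductase. It stood at 338, 387 and 194 FPKM in control libraries 0, 1 and 2, and at 444, 472 and 206 FPKM in estradiol libraries 0, 1 and 2. The library numbered 2 was lowest in both groups, the groups overlapped, and the log2 change of 0.25 with a standard error (SE) of 0.38 did not pass the test (limma adjusted p = 0.725). Its closest protein among the genes is that of SPAC750.01, 87.5% identical, whose gene stood at only 0.233 FPKM in control. Next came yhb1 (SPAC869.02c), a nitric oxide dioxygenase that detoxifies nitric oxide, at 77 ± 6.84 FPKM in control. The 2-dehydropantoate reductase gene pan5 (SPBPB2B2.09c), of the pantothenate pathway, stood at 76.8 ± 1.11 FPKM (n = 3 each).

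Among transporters the highest in control were cat1 (SPAC869.11), which carries arginine and lysine, at 41.7 ± 4.92 FPKM, and nhe1 (SPAC977.10), a sodium/proton antiporter, at 38.7 ± 1.68 FPKM. The proline transporter gene put4 (SPAC869.10c) followed at 32.5 ± 12.4 FPKM and the cysteine transporter gene SPBPB10D8.01 at 28.6 ± 5.65 FPKM. The neighbouring order of cat1 and nhe1 differed by less than the SD of cat1. The galactose genes gal7, gal10 and gal1 of SPBPB2B2, encoding the Leloir pathway enzymes, averaged 9.01, 5.68 and 9.32 FPKM in control. Because strand was not marked, reads of gal10 cannot be told apart from those of tgd1 where they overlap. The same holds for gal1 and an overlapping non-coding RNA.

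Estradiol was compared with vehicle in a fit over the whole table. The test was limma on log2(FPKM + 1), with a gene called at a Benjamini-Hochberg adjusted p under 0.05 over 6166 features with a mean of at least 1 FPKM. Only 47 of the 115 genes passed that filter and 68 did not, so most of the quiet genes were not tested. Of the 47, 1 was called higher and 3 lower, or 8.51%, beside 7.98% of all features tested, of which 4.07% were higher and 3.91% lower. The share is near the background. The median log2 change of the 47 was -0.05, against 0.02 over all features tested, with 23 above 0 and 24 below. It was -0.19 with quantile normalization, with 16 above 0 and 31 below. With 1 library left out it ran from -0.14 without control 2 to 0.09 without control 0, and it was above 0 also without control 1 (0.03) or estradiol 2 (0.05). With the column number as a block, which pairs the libraries, 2 were called higher and 5 lower, against 16.7% of all features tested, of which 8.21% were higher and 8.5% lower.

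The gene called higher was SPAC212.04c, an uncharacterized gene at chrI:21587-23050 whose sequence is shown above. It stood at 5.54, 4.03 and 4.48 FPKM in control and at 10.5, 12.1 and 8.11 FPKM in estradiol libraries 0, 1 and 2. All 3 estradiol libraries lay above all 3 controls. The log2 change was 0.98 (SE 0.18, limma adjusted p = 0.0253), and at least 50% of its windows (55.0%) were repeated. The call was lost when any library but estradiol 2 was left out, with limma adjusted p up to 0.0919, and with quantile normalization at 0.0660.

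The near-copies of SPAC212.01c, which share only part of their sequence with SPAC212.04c, were low in both groups. SPBCPT2R1.04c stood at 3.19, 3.61 and 3.57 FPKM in control and 5.18, 6.27 and 3.38 FPKM in estradiol libraries, which overlapped, with a log2 change of 0.39 (SE 0.22, limma adjusted p = 0.319). SPBC1348.01 stood at 1.29, 1.24 and 0.904 FPKM in control and 1.88, 2.6 and 2.015 FPKM with estradiol. These did not overlap, but the log2 change of 0.56 did not pass the test (SE 0.24, limma adjusted p = 0.204). Summed over the 5 genes with proteins more than 95% identical, which excludes SPAC212.04c, the levels were 4.48, 4.85 and 4.47 FPKM in control and 7.54, 8.87 and 5.39 FPKM with estradiol.

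Of the genes called lower, the L-asparaginase gene SPAC977.12 (chrI:56492-57736), whose enzyme splits asparagine, was the firmest. It stood at 62.1, 62.3 and 62.6 FPKM in control and fell to 37.4, 38.2 and 43.9 FPKM with estradiol. The groups did not overlap. The log2 change was -0.64 (SE 0.08, limma adjusted p = 0.00739), and the call held with any library left out, with adjusted p up to 0.0453. Its copy SPBPB8B6.05c, a gene outside the 10 clones with a protein 99.7% identical, stood at 41.2, 42.9 and 51.4 FPKM in control and 25.8, 33.5 and 34.5 FPKM with estradiol. The 2 genes moved in the same direction, but the copy did not pass the test, with a log2 change of -0.52 (limma adjusted p = 0.0628), and 73.3% of the windows of SPAC977.12 are repeated.

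The antiporter gene nhe1 (SPAC977.10, chrI:51989-53858), whose product exports sodium, lies close by. It stood at 38.2, 40.6 and 37.4 FPKM in control and 27.1, 31.9 and 26.8 FPKM with estradiol, with every estradiol library below every control. The log2 change was -0.43 (SE 0.09, limma adjusted p = 0.0326), and no window was repeated. The call was lost when any of the 6 libraries was left out, with limma adjusted p from 0.0509 to 0.112. Between the 2 genes, the fluoride channel gene fex1 (SPAC977.11) stood at 3.09, 2.54 and 2.54 FPKM in control and 1.5, 2.06 and 2 FPKM with estradiol. It did not overlap either but did not pass the test, at a log2 change of -0.39 (SE 0.21, limma adjusted p = 0.298). Of the windows of fex1, 74.1% were repeated. Its copy SPBPB8B6.06c, outside the 10 clones and with an identical protein, averaged 12.4 FPKM in control and 10.8 FPKM with estradiol. The groups of that copy overlapped, at a log2 change of -0.18 (limma adjusted p = 0.413).

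At the right end of chromosome II the amino-acid permease gene nrg1 (SPBPB2B2.01, chrII:4457695-4459842) was called lower. It stood at 16.2, 15.4 and 23.4 FPKM in control and 8.67, 9.07 and 10.7 FPKM with estradiol, with no overlap. The log2 change was -0.86 (SE 0.17, limma adjusted p = 0.0295). Without control library 2, the highest, the call held, while without any other library it was lost, with limma adjusted p up to 0.104.

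**Figure D3:**
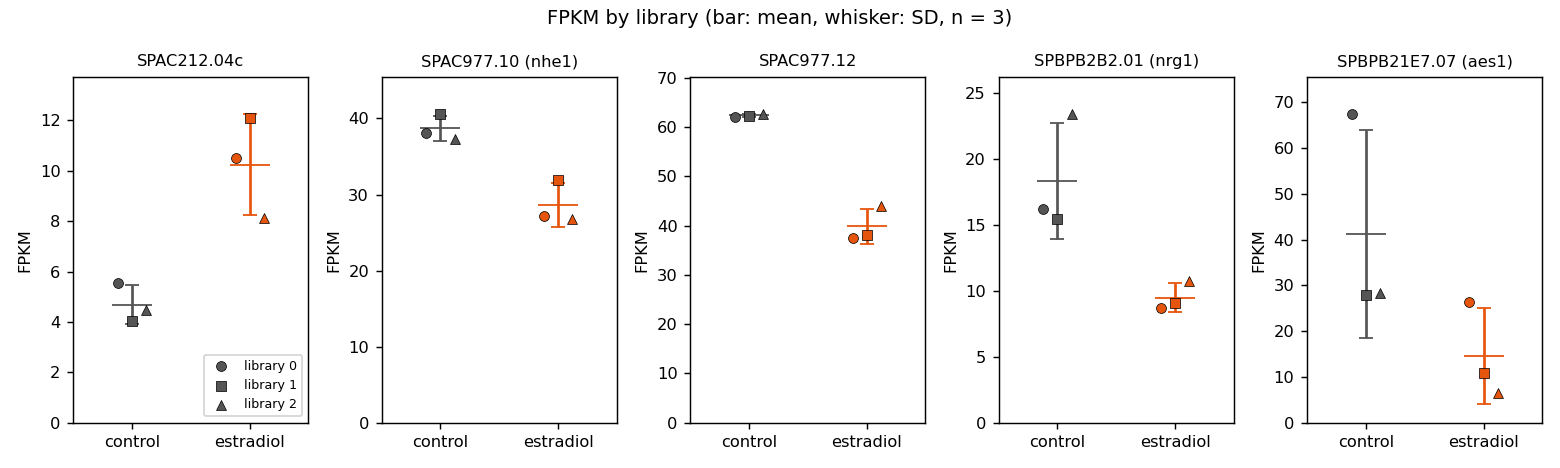
FPKM in each library for the 4 genes called by limma and for aes1, which was called with the block, on linear axes from 0. Points are libraries 0 (circle), 1 (square) and 2 (triangle) in control (grey) and estradiol (orange), with bars at the group means and whiskers for the SD (n = 3); SPAC212.04c lies higher with estradiol in all 3 libraries, from 8.11 to 12.1 FPKM, and the other 4 genes lie lower.

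The largest fitted fall belonged to aes1 (SPBPB21E7.07, chrII:70132-71310), annotated as a phenazine biosynthesis family protein. It stood at 67.4, 27.8 and 28.3 FPKM in control and 26.3, 10.8 and 6.57 FPKM with estradiol. Library 0 was highest in both groups, and the highest estradiol library lay just below the lowest control. The log2 change of -1.52 (SE 0.52) did not pass the test (limma adjusted p = 0.124), but did with the column number as a block (adjusted p = 0.00474). It also passed without estradiol library 0, at a log2 change of -2.03 (limma adjusted p = 0.0461). The pseudogene SPBPB21E7.08 close by, which overlaps a non-coding RNA, also had library 0 highest, at 42.5, 11.0 and 13.3 FPKM in control and 36.1, 6.47 and 10.7 FPKM with estradiol. Its groups overlapped (log2 change -0.40, SE 0.69, limma adjusted p = 0.770).

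The block also brought put4 and pfl9 past the threshold. put4 stood at 45.2, 32.0 and 20.3 FPKM in control and 31.0, 18.0 and 17.6 FPKM with estradiol, with overlap, at a log2 change of -0.51 (limma adjusted p = 0.374, with the block 0.0460). pfl9 (SPAC186.01), a surface glycoprotein of the DIPSY family, stood at 10.4, 11.4 and 6.94 FPKM in control and 16.6, 17.4 and 9.52 FPKM with estradiol. Its library 2 was lowest in both groups, so the groups overlapped, and the log2 change was 0.54 (limma adjusted p = 0.252, with the block 0.0275).

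SPAC212.03, an uncharacterized gene next to SPAC212.04c, was listed at 0 in the 3 controls and at 1.11, 1.66 and 4.14 FPKM with estradiol. It reached the mean of 1 FPKM needed for the test only through the estradiol libraries. SPAC212.03 did not pass the test (limma adjusted p = 0.0628), but was called without the intensity trend (limma adjusted p = 0.0437). Its copies SPBC1348.15 and SPBCPT2R1.03 were listed at 0 throughout. In all, 39 genes were listed at 0 in the 3 controls, and 9 of these were above 0 in at least 1 estradiol library. Over all features this held for 59 of the 453 listed at 0 in the 3 controls, and these shares were not compared by a test. Of the 9 genes, 8 were copied genes, in which a listed 0 is not a measurement of silence. Listed at 0 in the 3 estradiol libraries and above 0 in at least 1 control were 4 genes, against 33 of all 7016 features. These were SPAC186.08c, SPBC1348.03, SPBPB21E7.06 and SPBPB2B2.17c, of which 2 were copied genes.

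By role, 10 of 17 transport genes were tested, with 2 lower and 0 higher, and 19 of 37 enzyme genes, with 1 lower and 0 higher. Of 37 genes of unknown function 10 were tested, and 1 was higher. Among 13 pseudogenes 5 were tested and 0 were called. Over all features tested, 4.07% were called higher and 3.91% lower, and the roles were not compared by a test. The sterol deacetylase gene say1 (SPBPB2B2.02) had values that did not overlap, at a log2 change of 0.40 (limma adjusted p = 0.176). For gal7 the change was 0.28 (0.192), for gal10, which overlaps tgd1, -0.37 (0.166) and for gal1 0.15 (0.727), with limma adjusted p in parentheses. The groups did not overlap for 17 of the 47 tested genes, 8 higher and 9 lower, or 36.2%, against 31.2% of all features tested. The 8 include SPAC212.03, which was tested only because of its estradiol values.

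A further 3 genes had the largest change of their clone without passing the test. SPBC1348.12, annotated as a DNA-binding transcription factor, stood at 4.54, 2.97 and 2.29 FPKM in control and 6.27, 7.89 and 5.02 FPKM with estradiol, with no overlap. Its log2 change was 0.81 (SE 0.25, limma adjusted p = 0.0960). ftm1 (SPAC977.01) had a log2 change of 0.91 (SE 0.49, limma adjusted p = 0.297), and the hydroxyacid dehydrogenase gene SPAC186.02c one of 0.76 (SE 0.33, adjusted p = 0.202). In the remaining clones the largest changes were -0.87 for SPBPB2B2.18, -0.80 for the pseudogene SPBCPT2R1.06c and -0.51 for the pseudogene SPBPB10D8.03, with limma adjusted p of 0.328, 0.265 and 0.523.

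Changes were also read against distance from the end, with the 50 kb line that was chosen after the values were seen. The 15 tested genes within 50 kb had a median log2 change of 0.39, with 11 above 0 and 4 below, and the 32 farther in had -0.16, with 12 above 0 and 20 below. With quantile normalization the medians were 0.14, with 8 above 0 and 7 below, and -0.27. Without control library 0 they were 0.61 and -0.04, and the second was -0.25 without control 2 and -0.07 without estradiol 2. With no filter, the median over all 68 genes within 50 kb was 0, with 31 above 0 and 11 below. The filtered values describe genes that had to reach 1 FPKM in the mean of all libraries, and 53 of the 68 genes within 50 kb did not. A low gene passes that filter more easily if 1 group is high, as SPAC212.03 did through its estradiol libraries.

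**Figure D4:**
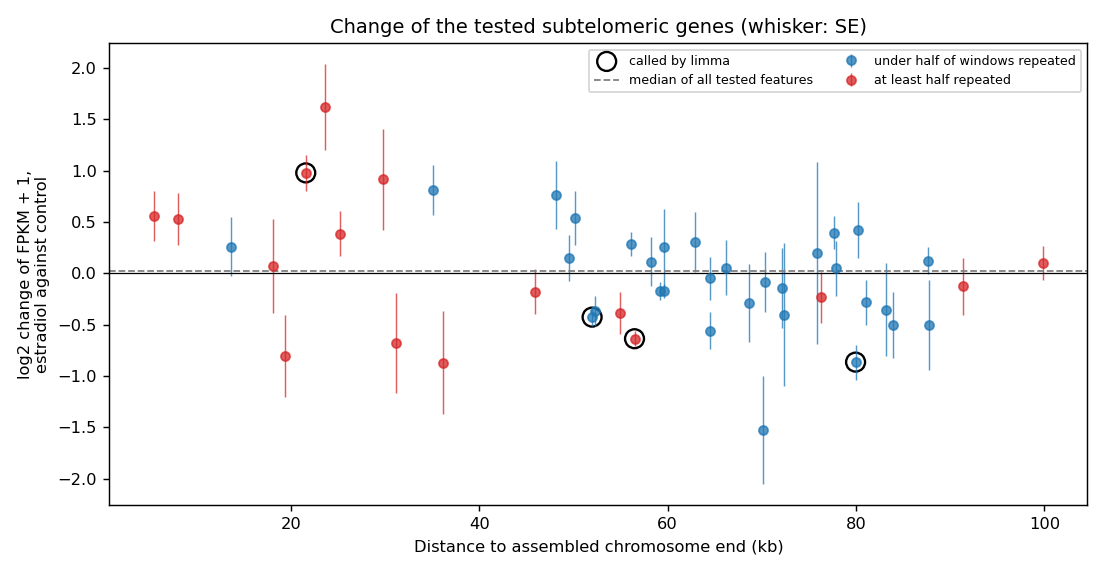
Log2 change of the 47 tested genes against distance to the assembled chromosome end in kb, with whiskers for the SE, red for genes with at least 50% of their windows repeated and circles round the called genes. The gene called higher lies within 50 kb and the 3 called lower lie beyond it.

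Summing FPKM over a whole clone uses every gene, tested or not. The sums still depend on how reads were divided between copies, since copies differ in length and many near-identical copies lie in other clones. In SPAC212 the sums were 10.3, 7.86 and 6.35 in control and 18.6, 18.7 and 15.5 with estradiol, and SPAC212.04c was the largest single contributor in both groups. In SPBC1348 they were 12.1, 9.54 and 6.67 in control and 14.9, 18.8 and 16.1 with estradiol. In SPAC750 they were 0.505, 0.194 and 0 in control and 1.27, 0.611 and 0.698 with estradiol, all within reach of a few fragments. In these 3 clones every estradiol library lay above every control library. SPBCPT2R1, the clone nearest the right end of chromosome II, did not share this: its sums were 4.22, 6.28 and 4.72 in control and 7.11, 6.35 and 4.06 with estradiol, which overlap (exact permutation p = 0.6).

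For SPAC212, SPBC1348 and SPAC750 the exact two-sided permutation p was 0.1 each, the smallest that 3 against 3 libraries allow, and 0.367 after adjustment over 11 sums. SPAC186 summed to 12.7, 13.6 and 9.22 in control and 25.5, 21.2 and 13.3 with estradiol, which overlap (exact permutation p = 0.2). SPBPB21E7 summed to 134, 59.0 and 61.2 in control and 81.9, 33.1 and 31.1 with estradiol (exact permutation p = 0.3). Over SPBCPT2R1 and the 4 other clones the exact p lay between 0.2 and 0.7. All 115 genes together summed to 962 ± 169 in control and 951 ± 207 with estradiol (n = 3 each, exact permutation p = 0.9), of which SPAC977.14c made up the largest part.

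**Figure D5:**
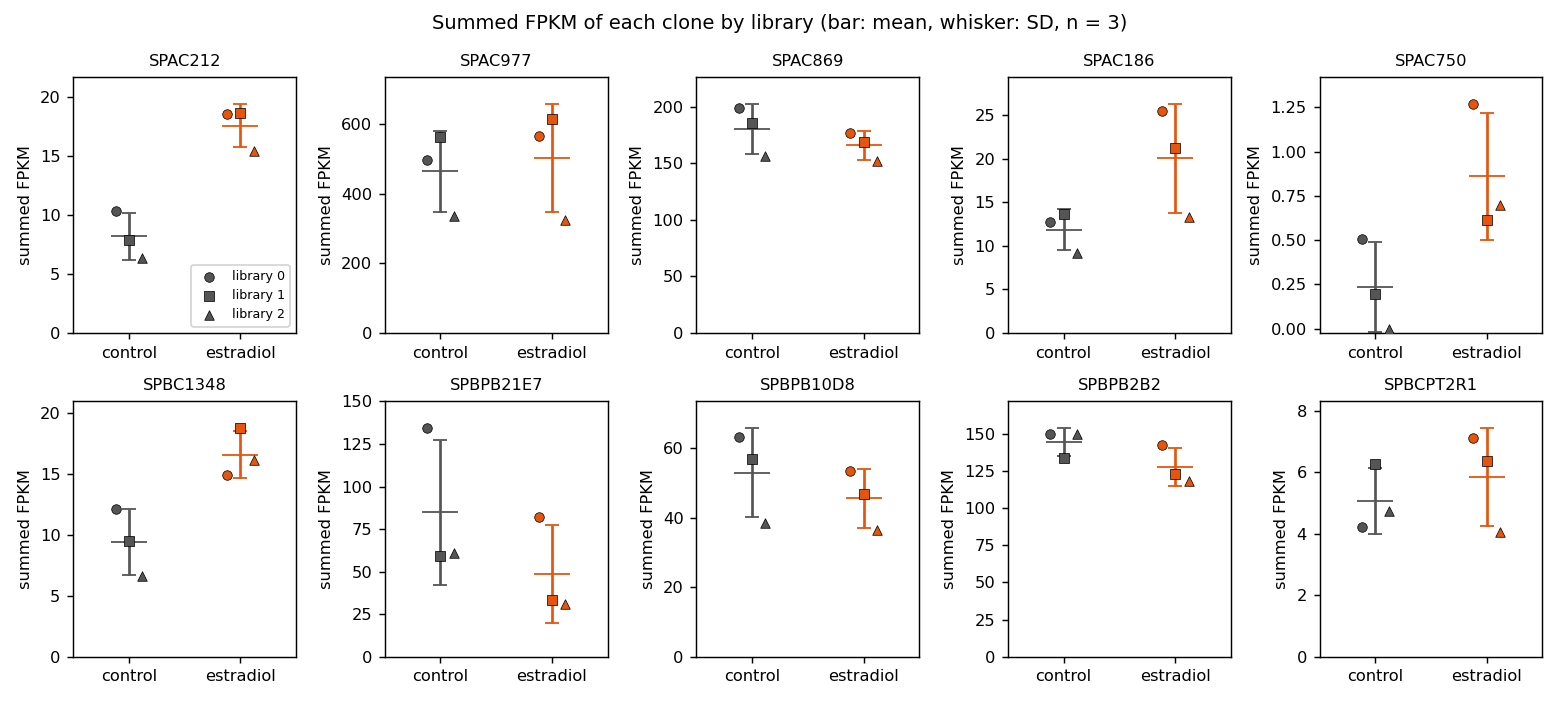
Summed FPKM of each clone in the 3 control (grey) and 3 estradiol (orange) libraries on linear axes, with libraries 0, 1 and 2 as circle, square and triangle, a bar at each group mean and whiskers for the SD (n = 3). The groups do not overlap in SPAC212, SPAC750 and SPBC1348, where all estradiol libraries lie higher.

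The number of genes below 1 FPKM moved with the rest of the table. It was 69, 70 and 74 in control libraries and 65, 67 and 68 in estradiol libraries, against 964, 931 and 970 and then 884, 843 and 872 over all features. For both, all estradiol libraries lay below all controls (exact permutation p = 0.1, the smallest possible). Genes listed at 0 numbered 51, 46 and 54 in control and 46, 40 and 51 with estradiol, which overlap (exact permutation p = 0.5). The deepest library of each group, number 1, listed the fewest zeros.

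Genes for shelterin and for proteins that build, read or otherwise regulate heterochromatin were themselves expressed. In limma without the block, 0 of these 26 were called, beside 7.98% of all features tested. An unadjusted p under 0.05 was found for 5 of the 26, against 1599 of all 6166 features tested, and the median log2 change of the 26 was -0.01. The 5, which are no larger a share than in the whole table, were tpz1 of shelterin, stc1 and pcu4 of the Clr4 complex and the chromodomain genes chp1 and chp2. With the block 1 of the 26 was called, beside 16.7% of all features tested. It was chp2, at a log2 change of 0.37 from 21.1 to 27.4 FPKM (limma adjusted p = 0.0286 with and 0.0628 without the block). swi6 stood at 83.2 FPKM in control and 79.3 FPKM with estradiol, and clr4 at 8.05 and 7.56 FPKM.

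The median control level listed for all 115 genes, 0.412 FPKM, was lower than that of other features near chromosome ends. The 66 other features within 100 kb of the ends of chromosomes I and II had a median control level of 2.34 FPKM. The 109 features near the ends of chromosome III had one of 18.0 FPKM. The 63 copied genes of the clones had a median of 0 FPKM, where a listed 0 is not a measurement of silence. The other 52 genes had a median of 2.80 FPKM, above that of the 66 neighbours and below that at chromosome III. The lower level than the neighbours was therefore not seen in the genes that were not copied. With estradiol, 5 of 48 tested neighbours were called higher and 3 lower, at a median log2 change of 0.15. At chromosome III the calls were 4 higher and 4 lower of 90 tested, at a median of 0.07. Called in either direction were 16.7% of the tested neighbours and 8.89% of those at chromosome III, beside 7.98% of all features tested, and these shares were not compared by a test. These sets hold other kinds of feature, non-coding RNAs among them, and the difference in level was not tested.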

How the data were processed

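The authors deposited 1 table of FPKM values (log2 was not applied) per feature and library. The software named is Cuffdiff, TopHat2 and CASAVA 1.4, per the submitters' processing notes; genome build, annotation and scaling steps are not stated in the sources used here. Ribosomal RNA was removed and the kit did not mark strand, per the labels' protocols, so reads from overlapping genes cannot be told apart. By its definition FPKM divides by each library's total, and a change in abundant transcripts would then move all others. Whether another scaling was applied is not known. The absolute depth is unknown. Relative depths, from the spacing of low values, were 1 (control 0), 1.3 (control 1), 0.894 (control 2), 0.688 (estradiol 0), 1.15 (estradiol 1) and 0.72 (estradiol 2).

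Libraries are named by the column number within their group, since no label ties a replicate number to a column. Deviations from group means correlated at 0.152, 0.212 and 0.146 between same-numbered libraries, and at -0.149 to -0.011 between others, so an alternative fit took the number as a block. The labels call the samples biological triplicates.

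Limma 3.58.1 in R 4.3.3, with an intensity trend, tested log2(FPKM + 1) for 6166 features with a mean of at least 1 FPKM, 2-sided, with Benjamini-Hochberg adjustment. Fold changes on this scale understate those of low genes. The script was tested on simulated data. Sums and counts per library went into exact permutation tests (SciPy 1.17.1). Gene positions, names, products and sequence came from RefSeq ASM294v3, which matched 6845 of 7016 features and may differ from the authors' build. Protein identity was from BLAST 2.17.0. Named genes were the called genes, the 3 highest in control and the largest change of each clone, tlh1 and tlh2, near-identical copies and genes listed at 0 throughout; others were chosen after their values were seen. The genes and lists were chosen with earlier results of these data known.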

Additional observations from a re-analysis of the deposited data

How the results depend on the processing

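The 3 libraries per group and their unknown depth limit what low genes can show. SPAC977.12 kept its call in every setting that tested it, and SPAC212.04c, nhe1 and nrg1 each lost it in at least 1. Genes of the clones called higher numbered 1 of the 47 tested at first, and 0 with no filter and with quantile normalization. They also numbered 0 at a minimum mean of 10 FPKM, with 19 tested, and without copied members (a setting added after the data were seen). These settings leave out SPAC212.04c, with a mean of 7.47 FPKM and 55.0% of its windows repeated, so it could not be called there. Genes called higher numbered 2 without the intensity trend, 2 with the replicate block, and 0 to 1 when 1 library was left out. Those called lower numbered 3 at first, 1 with no filter, 5 with the block and 1 to 2 with 1 library left out. Over the whole table, 251 higher and 241 lower calls became 144 and 107 with quantile normalization, 506 and 524 with the block, and 49 to 242 and 37 to 207 with 1 library left out.

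The median log2 change of SPAC212, SPAC186 and SPBC1348 was 0.62, 0.65 and 0.56, over only 4, 2 and 3 tested genes. With no filter, which brings in the genes at or near 0, it was 0.0078, 0.18 and 0.031. Medians below 0 were found for SPBPB21E7 (-0.48 over 4 tested genes), SPBPB10D8 (-0.28 over 5), SPBPB2B2 (-0.17 over 9) and SPAC977 (-0.05 over 11). That of SPAC869 was 0.05 over 7. The 4 tested genes of SPAC212 include SPAC212.03, which was tested only because of its estradiol values. That of SPBCPT2R1 was -0.21 over 2 tested genes, -0.74 at a pseudocount of 0.1, -0.45 with quantile normalization, -0.80 without near-identical copies and -0.31 to 0.41 with 1 library left out. The difference in summed FPKM of all genes, estradiol minus control, was -11.1, and between -108 and 108 with 1 library left out, where it reversed to 49.2 without control 0, 25.3 without control 1 and 108 without estradiol 2.

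Of 32 single genes followed, 12 values changed sign, none of them in a called gene. With quantile normalization these were SPAC212.06c (-0.19), SPAC212.07c (-0.027) and SPBPB10D8.07c (-0.048). With 1 library left out, the log2 change ranged from -0.27 to 0.39 for SPAC212.06c, from -0.044 to 0.64 for SPAC977.14c, from -0.32 to 0.086 for SPBPB10D8.04c, from -0.074 to 0.21 for SPBPB10D8.07c, from -1.06 to 0.18 for SPBPB21E7.08 and from -0.60 to 0.20 for SPBPB2B2.05. The cause was not tested. Among the genes of the clones the block brought in pfl9, put4 and aes1 and changed no other call. The other values were the same in 391 cases, lost a call in 20 and gained one in 5.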
